A study of Mus musculus with 4 samples.

Results

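The 10 genes described here encode nucleic acid sensors and the adaptors, kinase and transcription factor that pass on their signal: *Ddx58*, *Ifih1*, *Mavs*, *Tmem173*, *Aim2*, *Tlr3*, *Tlr7*, *Tlr9*, *Tbk1* and *Irf3*. They were chosen by name, as the gene probes that carry one of these symbols in the scanner files, which gave 14 probes for 10 of the 30439 genes and transcripts on the array. RNA of male C57BL/6J mouse liver was measured on 4 single-colour Agilent arrays, and each pairing of genotype with feeding has 1 array. All mice had received a high-fat diet (HFD) for 24 weeks per the labels, while the methods give a range of durations and a start shortly after weaning, and no age is in the labels. The *Drp1*LiKO group carried Alb-Cre Tg/+ with Drp1 flox/flox, so that the recombinase is driven by the albumin promoter and acts in hepatocytes, and the control group (Cont) consisted of Drp1 flox/flox littermates without the transgene, so both groups carried the floxed allele. One liver of each genotype is labelled as refed. For these, the series text gives a fast of 17 h and 4 h of refeeding, without naming mice that were left fasted, and the methods give a slightly shorter fast. The other liver of each genotype is called fasted below, a reading that rests on the paper's description, because its label names no feeding state. The labels also describe these fasted arrays as raw data that appeared in earlier submissions.

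Because no group has a second array, a difference between livers within a feeding state or within a genotype is a value without a test. The measurement standard error (SE) printed beside a difference was taken from the scanner software's error model, amounts to about 0.20 on the log2 scale for most of these genes, and leaves out all variation between animals. Levels are log2 signals relative to the 75th percentile of the same array, which was a signal of 461 and 722 in the fasted Cont and *Drp1*LiKO livers and of 357 and 526 in the refed ones. Of 43020 gene spots per array, 48.7% to 58.2% were well above background in the software's own call, and none was saturated. All 6 hepatocyte markers read were well above background on every array. *Dnm1l*, the gene that encodes Drp1, differed by -0.21 in the fasted and -0.12 in the refed livers (*Drp1*LiKO minus Cont), and since the deleted exons are not named in the sources used here, this probe does not check the genotype labels.

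Cells detect foreign or misplaced nucleic acids in the cytosol and in endosomes. In the cytosol, RIG-I (*Ddx58*) and MDA5 (*Ifih1*) bind RNA and signal through MAVS on the outer mitochondrial membrane, whereas the DNA sensor cGAS signals through STING (*Tmem173*), and AIM2 binds DNA and assembles an inflammasome. In endosomes, TLR3 and TLR7 recognise RNA and TLR9 recognises DNA. TBK1 phosphorylates IRF3 downstream of MAVS, STING and TLR3, and IRF3 then switches on type I interferon genes. *Ddx58* and *Ifih1* are themselves known interferon targets, and in liver the endosomal receptors are known mainly from Kupffer cells, dendritic cells and endothelial cells. All values are of whole liver, in which fewer cells of a type and less RNA per cell cannot be told apart.

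The promoters of *Ddx58* and *Ifih1* are printed because these were the members that differed at least 2-fold between genotypes in the refed livers with a signal well above background on every array. Each sequence covers 250 bases before and 50 bases after the RefSeq start site, on the minus strand of the GRCm38.p6 assembly, which is not the assembly of the probe positions. Capitals mark matches, on either strand, to the interferon-stimulated response element core GAAANNGAAA or to its shorter form GAAANGAAA. The regions are chr4:40239776-40240075 for *Ddx58* and chr2:62646206-62646505 for *Ifih1*.
Ddx58: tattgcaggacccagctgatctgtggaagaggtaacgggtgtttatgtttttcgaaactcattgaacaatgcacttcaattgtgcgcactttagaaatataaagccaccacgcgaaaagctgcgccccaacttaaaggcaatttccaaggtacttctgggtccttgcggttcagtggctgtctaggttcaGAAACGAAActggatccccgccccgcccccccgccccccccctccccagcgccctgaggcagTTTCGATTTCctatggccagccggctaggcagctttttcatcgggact
Ifih1: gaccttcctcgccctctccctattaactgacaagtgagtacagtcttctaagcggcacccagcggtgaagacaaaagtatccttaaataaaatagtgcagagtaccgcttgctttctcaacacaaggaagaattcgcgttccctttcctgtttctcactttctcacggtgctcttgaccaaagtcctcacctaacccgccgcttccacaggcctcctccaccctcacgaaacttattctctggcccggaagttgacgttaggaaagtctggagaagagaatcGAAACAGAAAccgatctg
The *Ddx58* promoter held GAAANNGAAA once, on the opposite strand and beginning at base 3 after the start, and GAAANGAAA once, beginning at base -60. The *Ifih1* promoter held GAAANNGAAA once, beginning at base 33. Of 32851 promoters in the same table, 3.44% held GAAANNGAAA and 3.17% held GAAANGAAA. Promoters were found for 8 of the 10 members, and those of *Mavs*, *Aim2*, *Tlr3*, *Tlr9*, *Tbk1* and *Irf3* held neither. A match is a description of the letters only.

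**Figure D1:**
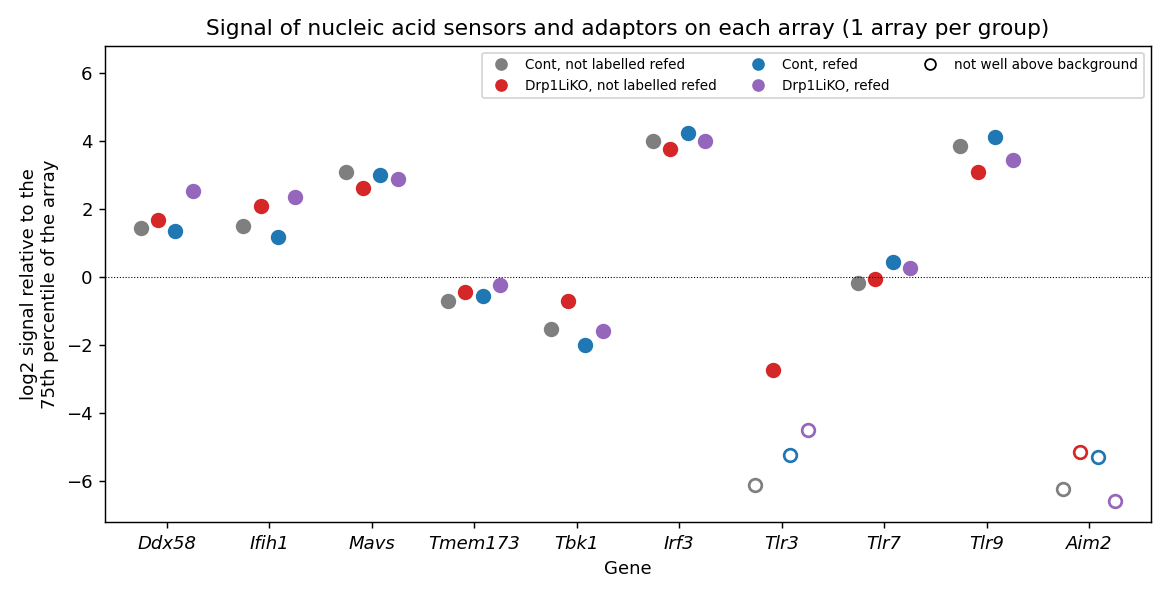
Log2 signal of each gene relative to the 75th percentile of the array (y axis), with 1 point per array and 1 array per group, for the probe that represents the gene. Filled points were well above background, and open points were not. *Ddx58* and *Ifih1* had their highest point on the refed *Drp1*LiKO array (2.53 and 2.36), *Tlr3* was well above background on the fasted *Drp1*LiKO array alone, and *Aim2* on no array.

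Of the 10 members, 8 were well above background on all 4 arrays, *Tlr3* on 1 and *Aim2* on none, as the plot of member signals shows. In the fasted livers 1 of 9 measured members was at least 2-fold different between genotypes (*Tlr3*, higher in *Drp1*LiKO), against 13.2% of the 18040 genes measured (8.06% higher, 5.19% lower). In the refed livers 2 of 8 were (*Ddx58* and *Ifih1*, both higher), against 14.4% of 17446 genes (8.05% higher, 6.33% lower). For comparison, 14447 genes had such a signal on every array, and of these 6.06% in the fasted and 7.12% in the refed livers differed at least 2-fold, as did 0 and 2 of the 8 members. The median genotype difference of these 8 members was 0.17 in the fasted livers (5 higher, 3 lower) and 0.10 in the refed livers (4 higher, 4 lower), beside -0.12 and -0.08 over all such genes.

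Both cytosolic RNA sensors were more than 2-fold higher in *Drp1*LiKO in the refed livers. *Ddx58*, read from a probe on the minus strand of chromosome 4 (40151893 to 40151952, mm9), had a level of 1.46 in the fasted Cont, 1.69 in the fasted *Drp1*LiKO, 1.35 in the refed Cont and 2.53 in the refed *Drp1*LiKO liver. Only the refed *Drp1*LiKO liver stood apart from the other 3, which lay within 2 SEs of their neighbours in this order. The genotype difference was therefore 0.23 (SE 0.20) in the fasted livers and 1.18 (SE 0.20) in the refed livers, the latter 2.27-fold. The refed difference exceeded the fasted one by 0.95 (measurement SE 0.29). Another *Ddx58* probe, 760 bases away, gave -3.32, -3.17 and -2.73 in the fasted Cont, fasted *Drp1*LiKO and refed *Drp1*LiKO livers and was not well above background in the refed Cont liver. With it, the refed *Drp1*LiKO liver was the highest, at least 1.77-fold above the refed Cont liver, and the fasted livers differed by 0.15. It exceeded the fasted *Drp1*LiKO liver by only 0.45 (SE 0.25), within 2 SEs. With this probe the refed *Drp1*LiKO liver thus did not stand apart from the fasted *Drp1*LiKO liver.

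*Ifih1* was read from a probe on the minus strand of chromosome 2 (62435507 to 62435566, mm9). Its level was 1.503 in the fasted Cont, 2.09 in the fasted *Drp1*LiKO, 1.19 in the refed Cont and 2.36 in the refed *Drp1*LiKO liver. Both *Drp1*LiKO livers were above both Cont livers, and livers of the same genotype lay within 2 SEs of each other. The genotype difference was 0.58 (SE 0.20) in the fasted livers and 1.17 (SE 0.20) in the refed livers, the latter 2.25-fold, and these 2 values differed by 0.59 (measurement SE 0.29). The other *Ifih1* probe, 547 bases away, was well above background in the *Drp1*LiKO livers alone (-3.76 fasted, -3.92 refed). It was at least 1.15-fold higher in *Drp1*LiKO in the fasted livers and allowed no fold in the refed livers, where the *Drp1*LiKO signal lay below the lowest signal that the Cont array could place above background.

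*Mavs*, the mitochondrial adaptor of both RNA sensors, did not share their order. Its probe on chromosome 2 (131073675 to 131073734, plus strand, mm9) gave 3.10 in the fasted Cont, 2.62 in the fasted *Drp1*LiKO, 3.02 in the refed Cont and 2.89 in the refed *Drp1*LiKO liver. The fasted *Drp1*LiKO liver was the lowest, but it lay within 2 SEs of the refed *Drp1*LiKO liver (0.27 lower, SE 0.20). The genotype difference was -0.48 (SE 0.20) in the fasted and -0.13 (SE 0.20) in the refed livers, the former beyond 2 SEs and the latter within 1 SE of 0. Under quantile normalization the fasted difference was -0.33, within 2 of these SEs, so its size against the SE depends on the scaling.

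Of the cytosolic DNA-sensing members, *Tmem173* was measured in every liver and *Aim2* in none. *Tmem173*, which encodes the adaptor STING and has its probe on chromosome 18, had levels of -0.69, -0.42, -0.56 and -0.23 in the fasted Cont, fasted *Drp1*LiKO, refed Cont and refed *Drp1*LiKO livers. The *Drp1*LiKO liver was the higher of each pair, by 0.27 in the fasted and 0.33 in the refed livers (SE 0.21 each), values within 2 SEs of 0. *Aim2*, the inflammasome sensor of DNA, was represented by 1 probe on chromosome 1 (175396036 to 175396095, plus strand, mm9) and was below that call on all 4 arrays. Its processed signals were 6.17, 20.4, 9.25 and 5.53 in the same order, so no fold is given.

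**Figure D2:**
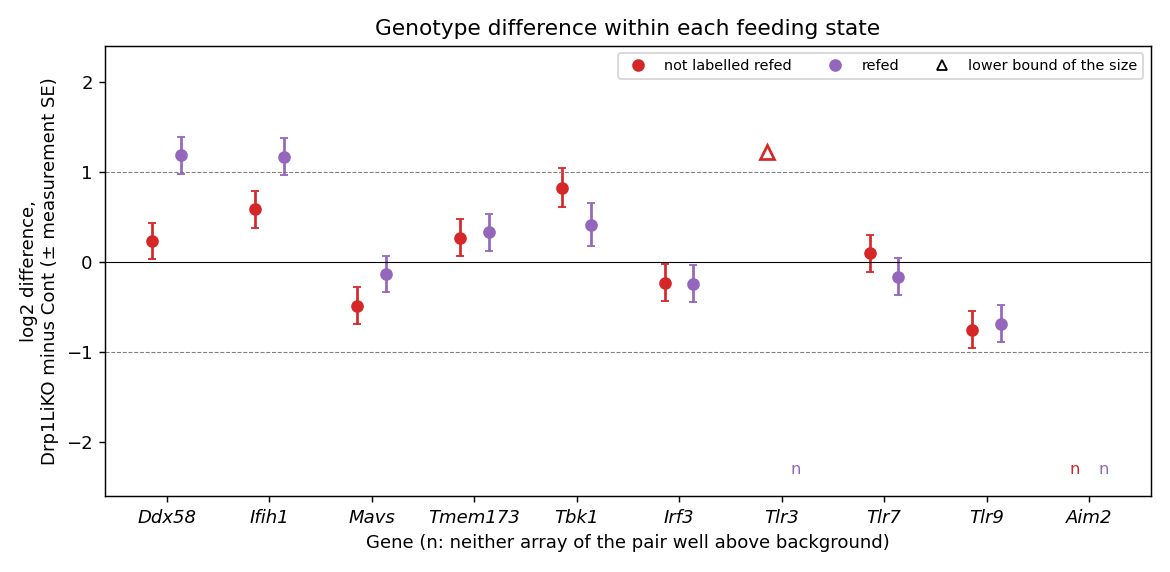
Log2 difference of *Drp1*LiKO minus Cont (y axis) for each gene in the fasted livers (not labelled refed) and in the refed livers, with 1 array per group. Bars are 1 measurement SE of the scanner software and leave out variation between animals, dashed lines mark 2-fold, the triangle is a lower bound, and n marks pairs in which neither array was well above background. *Ddx58* and *Ifih1* lie above the upper dashed line in the refed livers (1.18 and 1.17), and *Tlr9* is the lowest gene in both states (-0.75 and -0.68).

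Among the endosomal receptors, *Tlr9* was lower in *Drp1*LiKO in both feeding states. The probe for this DNA receptor lies on chromosome 9 (106128979 to 106129038, plus strand, mm9) and gave 3.85 in the fasted Cont, 3.09 in the fasted *Drp1*LiKO, 4.12 in the refed Cont and 3.44 in the refed *Drp1*LiKO liver. Both Cont livers were above both *Drp1*LiKO livers. The genotype difference was -0.75 (SE 0.20) in the fasted and -0.68 (SE 0.20) in the refed livers, short of 2-fold but beyond 3 SEs in each. In an additive limma model of genotype and feeding over all 4 arrays, which treats any interaction as error, the *Tlr9* genotype effect was -0.72 (SE 0.14, adjusted p = 0.109), which missed the threshold of 0.05. It had an adjusted p of 0.0486 when the model was fitted only to the 14447 genes measured on every array, the lowest of a range that reached 0.339 over the alternatives. In that restricted fit, 1214 of the 14447 genes passed the threshold.

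*Tlr7*, the endosomal receptor for single-stranded RNA, was represented by 3 probes on the X chromosome, and these did not give the same picture. The probe used (163742863 to 163742922, minus strand, mm9) gave -0.16, -0.06, 0.45 and 0.29 in the fasted Cont, fasted *Drp1*LiKO, refed Cont and refed *Drp1*LiKO livers. With it the genotypes lay within 1 SE of each other in each state, at 0.10 in the fasted and -0.16 in the refed livers (SE 0.21 each). A dimmer probe 283 bases away gave -3.51, -2.50 and -2.30 in the fasted Cont, fasted *Drp1*LiKO and refed *Drp1*LiKO livers and was not well above background in the refed Cont liver. With this probe *Drp1*LiKO was higher, by 2.02-fold in the fasted and at least 2.37-fold in the refed livers. The third probe, 4351 bases from the probe used, was too dim for that call on all 4 arrays. Which of the probes follows the *Tlr7* transcript was not tested.

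*Tlr3*, the endosomal receptor for double-stranded RNA, was measured in 1 liver only. Its single probe on chromosome 8 (46481729 to 46481788, minus strand, mm9) was well above background in the fasted *Drp1*LiKO liver, with a processed signal of 108, beside signals of 6.69, 9.52 and 23.2 in the fasted Cont, refed Cont and refed *Drp1*LiKO livers. It was at least 2.33-fold higher in *Drp1*LiKO than in Cont in the fasted livers, and no fold can be given for the refed livers. This bound rests on a dim signal, and *Tlr3* was no longer 2-fold different when the background was corrected by normexp. That setting adds an offset of 50 to every signal, which by construction shrinks differences that involve dim signals.

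*Tbk1*, the kinase shared by the cytosolic and TLR3 routes, was read from a 60-mer probe whose ends lie 224 bases apart on chromosome 10 (120988364 to 120988587, minus strand, mm9), the layout of a probe across a splice junction. Its level was -1.52 in the fasted Cont, -0.69 in the fasted *Drp1*LiKO, -1.99 in the refed Cont and -1.58 in the refed *Drp1*LiKO liver. The fasted *Drp1*LiKO liver stood above the other 3. *Drp1*LiKO was higher by 0.83 (SE 0.22) in the fasted livers and by 0.42 (SE 0.24) in the refed livers, the latter within 2 SEs of 0.

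*Irf3*, the transcription factor at the end of the chain, showed no difference beyond 2 SEs between any pair of livers of the same state or genotype. Its probe on chromosome 7 (52257700 to 52257759, plus strand, mm9) gave 4.01, 3.78, 4.23 and 3.99 in the fasted Cont, fasted *Drp1*LiKO, refed Cont and refed *Drp1*LiKO livers. The genotype difference was -0.23 in the fasted and -0.24 in the refed livers (SE 0.20 each), within 2 SEs of 0 in each. Under quantile normalization the fasted difference was 0.00, so its sign depends on the scaling.

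In the additive model 0 of the 8 members tested passed an adjusted p of 0.05 for genotype, beside 0 of all 16744 genes (0%), of which 4746 had an unadjusted p under 0.05. After *Tlr9*, the members with the lowest adjusted p were *Ifih1* (0.88 higher in *Drp1*LiKO, SE 0.21, adjusted p = 0.126), *Tbk1* (0.62, adjusted p = 0.144) and *Ddx58* (0.71, adjusted p = 0.219). For *Tmem173*, *Mavs*, *Irf3* and *Tlr7* the adjusted p lay between 0.251 and 0.900. The model averages over feeding, so the wider *Ddx58* difference in the refed livers enters it as residual.

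**Figure D3:**
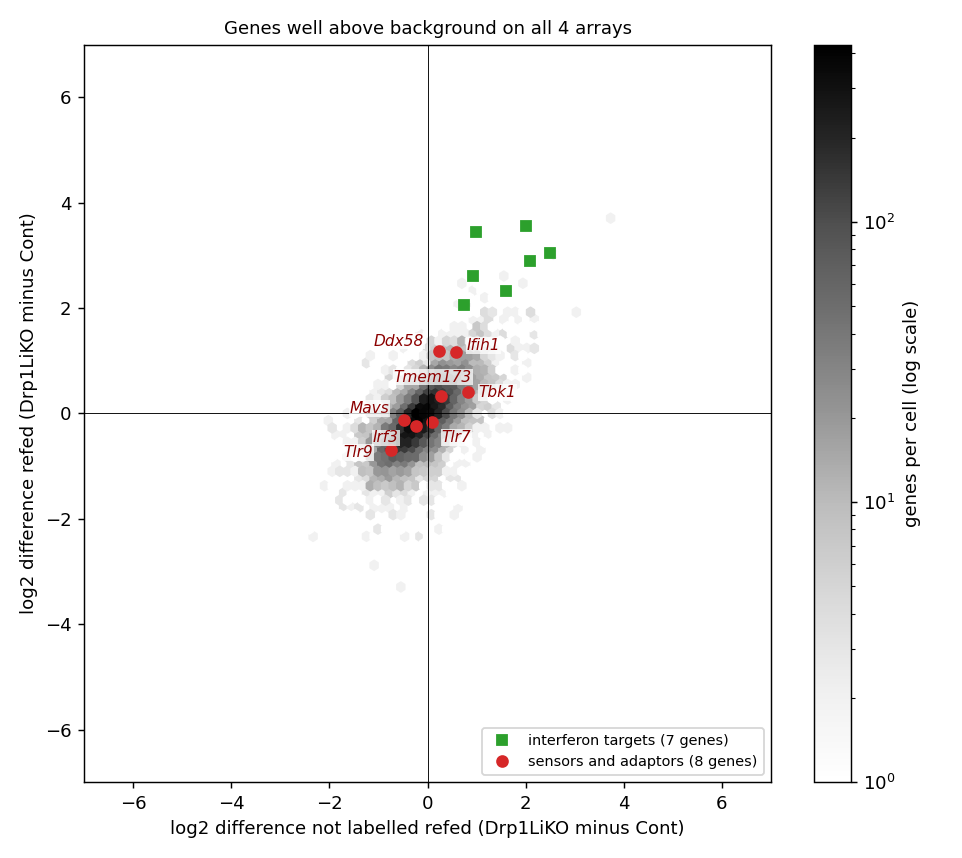
Log2 difference of *Drp1*LiKO minus Cont in the fasted livers (not labelled refed, x axis) against the same difference in the refed livers (y axis) for the 14447 genes with a signal well above background on every array, shaded by the number of genes per cell on a log scale. *Ddx58* and *Ifih1* lie in the upper part of the cloud on the y axis (1.18 and 1.17), below the 7 interferon targets measured on all 4 arrays, and *Tlr9* lies at the lower left.

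The refeeding differences that follow use the same 4 arrays as the genotype differences above. In Cont livers, 0 of 8 measured members differed at least 2-fold between the refed and the fasted liver, against 10.3% of all 16437 genes measured (4.47% higher, 5.83% lower). In *Drp1*LiKO livers 1 of 9 did (*Tlr3*, at least 3.39-fold lower after refeeding), against 12.8% of 18329 genes (5.61% higher, 7.15% lower). This *Tlr3* bound rests on the same dim signal of the fasted *Drp1*LiKO array as its genotype bound, so it is not a separate result. With normexp the difference was -0.64, short of 2-fold. Of the 14447 genes measured on every array, 3.97% in Cont and 5.87% in *Drp1*LiKO were different by that much. Among the 8 members measured on all arrays, the median refeeding difference was 0.02 in Cont (4 higher, 4 lower) and 0.27 in *Drp1*LiKO (7 higher, 1 lower), beside 0.11 and 0.12 over all such genes.

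The refeeding difference of *Ddx58* was -0.11 in Cont and 0.84 in *Drp1*LiKO (SE 0.20 each), and that of *Ifih1* was -0.31 in Cont and 0.27 in *Drp1*LiKO. With these probes the RNA sensors were thus slightly lower after refeeding in Cont and higher in *Drp1*LiKO. Of these 4 values, that of *Ddx58* in *Drp1*LiKO was the one beyond 2 SEs. The other, dimmer probes gave 0.45 (SE 0.25) for *Ddx58* and -0.16 (SE 0.36) for *Ifih1* in *Drp1*LiKO, each within 2 SEs of 0. *Tbk1* was lower after refeeding in both genotypes, by 0.47 (SE 0.25) in Cont and 0.88 (SE 0.21) in *Drp1*LiKO. *Tlr7* was higher in both, by 0.61 (SE 0.21) in Cont and 0.35 (SE 0.20) in *Drp1*LiKO, although with the median over its 3 probes, dim ones included, the Cont difference turned to -1.33. *Mavs*, *Tmem173*, *Tlr9* and *Irf3* lay between -0.086 and 0.35, all within 2 SEs of 0. In the additive model 0 of the 8 members passed for feeding, beside 0 of 16744 genes (0%), with 4414 at an unadjusted p under 0.05. The lowest adjusted p among the members were those of *Tbk1* (-0.68, adjusted p = 0.169) and *Tlr7* (0.48, adjusted p = 0.183).

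**Figure D4:**
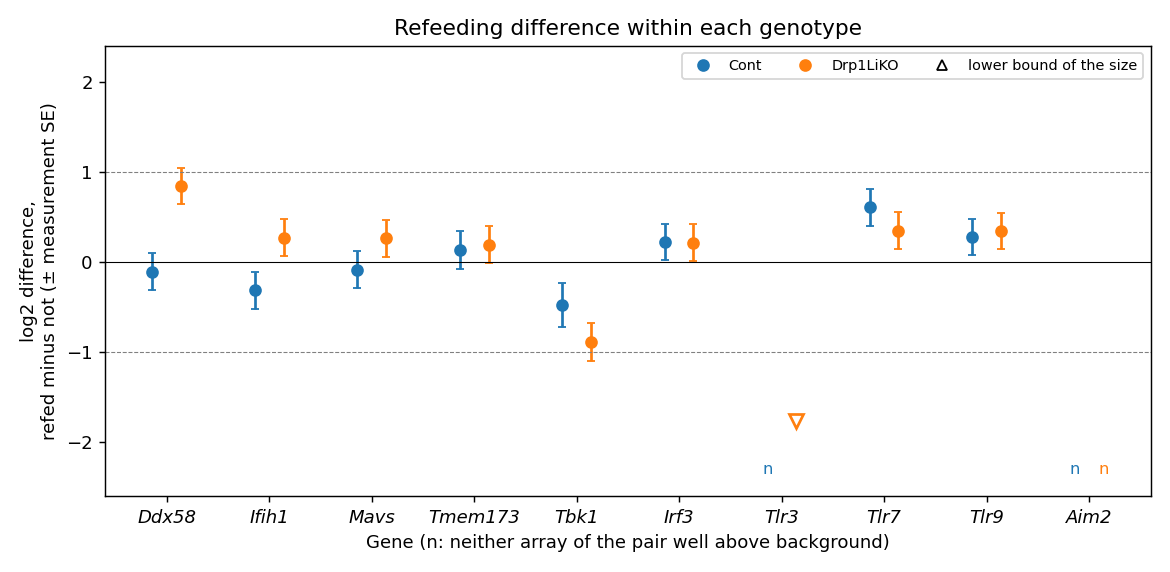
Log2 difference of the refed minus the fasted (not labelled refed) liver (y axis) for each gene in Cont and in *Drp1*LiKO, with 1 array per group. Bars are 1 measurement SE, dashed lines mark 2-fold, the triangle is a bound on the size, and n marks pairs in which neither array was well above background. *Ddx58* sits at -0.11 in Cont and 0.84 in *Drp1*LiKO, while *Tbk1* is below 0 in both.

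The genes around the members were read from lists of the same pathways. Beside the counts below, 13.2% of all genes measured in the fasted and 14.4% in the refed livers differed at least 2-fold between genotypes. Most detected list genes were well above background on every array, and over all such genes the shares were 6.06% and 7.12%. Of the other 10 genes of the cytosolic RNA arm, 0 differed at least 2-fold between genotypes in either state, and the list had a median of 0.09 in the fasted and 0.01 in the refed livers. *Ikbke*, which encodes the kinase IKKε related to TBK1, had the largest summed difference, 0.55 in the fasted and 0.89 in the refed livers. Of the 8 detected genes of the endosomal TLR arm, 0 were different by that much (medians -0.17 and -0.04), and *Tlr13*, a receptor for bacterial RNA, had the largest sum of the 2 differences in size (0.71 and 0.88), closely followed by *Cnpy3*, a chaperone of the TLRs, which was lower (-0.92 and -0.66). *Tlr8* was not well above background in any of the livers.

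Of 16 genes of the cytosolic DNA arm and its nucleases, 1 was at least 2-fold higher in *Drp1*LiKO in the fasted livers, and 2 were higher and 2 lower in the refed livers. Of all genes measured, 8.06% were higher by that much in the fasted livers, and 8.05% were higher and 6.33% lower in the refed livers. The list had a median of -0.14 in the fasted and 0.41 in the refed livers. *Ifi204*, a DNA-binding protein of the AIM2-like family, was higher in both states (1.07 and 1.65). *Casp1*, the inflammasome protease, was higher (1.26) in the refed livers, and *Enpp1* (-1.53), which breaks down the cGAS product, and *Rnaseh2c* (-1.08), a subunit of RNase H2, were lower. These 3 are named after their values were seen. *Mb21d1*, which encodes cGAS and is named whatever its values, differed by 0.19 in the fasted and 0.66 in the refed livers.

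Of the 8 detected interferon factors 1 was at least 2-fold higher in each state, *Irf7* (1.68 and 1.90), a transcription factor that amplifies interferon production, and the median was -0.04 in the fasted and 0.49 in the refed livers. *Ifnb1*, the interferon gene that IRF3 acts on, was not well above background in any of the livers. Of the 8 interferon targets, 5 were at least 2-fold higher in *Drp1*LiKO in the fasted and 8 in the refed livers, with medians of 1.80 and 2.97. Of all genes measured, 8.06% in the fasted and 8.05% in the refed livers were higher by that much. This list, like the others, was chosen with earlier results of these data known. *Rsad2*, which encodes the antiviral enzyme viperin, differed by 2.01 and 3.56, *Oas1a*, a synthetase that activates RNase L, by 2.50 and 3.04, *Usp18*, a brake on interferon signalling, by 1.60 and 2.33, and *Cxcl10*, a chemokine, by 2.08 and 2.89. *Ifit2* differed by 2.21 in the fasted livers and by at least 2.53 in the refed livers. In every one of these lists 0 genes passed an adjusted p of 0.05 for genotype in the additive model, beside 0 of all 16744 genes. The lowest adjusted p in the lists was 0.0720, among the targets. There 8 of 8 had an unadjusted p under 0.05, beside 4746 of the 16744 genes.

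Between the refed and the fasted liver, 10.3% of all genes measured in Cont and 12.8% in *Drp1*LiKO differed at least 2-fold. Of genes measured on every array, 3.97% in Cont and 5.87% in *Drp1*LiKO did. In Cont livers the only such list gene was *Enpp1* (1.06 higher after refeeding). In *Drp1*LiKO livers *Il1b*, an inflammasome-processed cytokine (1.05), and 4 interferon targets were higher, *Isg15* by 1.38, *Ifit1* by 1.65, *Ifit3* by 1.44 and *Cxcl10* by 1.05, and *Traf6*, a ubiquitin ligase downstream of the TLRs, was lower (-1.02). These genes are named after their values were seen, as no gene of these pathway lists was 2-fold different in both genotypes. In Cont the count was 1 of 16 genes of the DNA arm. In *Drp1*LiKO it was 4 of 8 targets, 1 of 16 genes of the DNA arm and 1 of 10 of the RNA arm. It was 0 of 8 in the endosomal TLR arm and 0 of 8 in the interferon factors. The median refeeding difference of the 8 targets was -0.19 in Cont and 0.91 in *Drp1*LiKO, beside 0.01 and 0.47 for the cytosolic RNA arm.

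**Figure D5:**
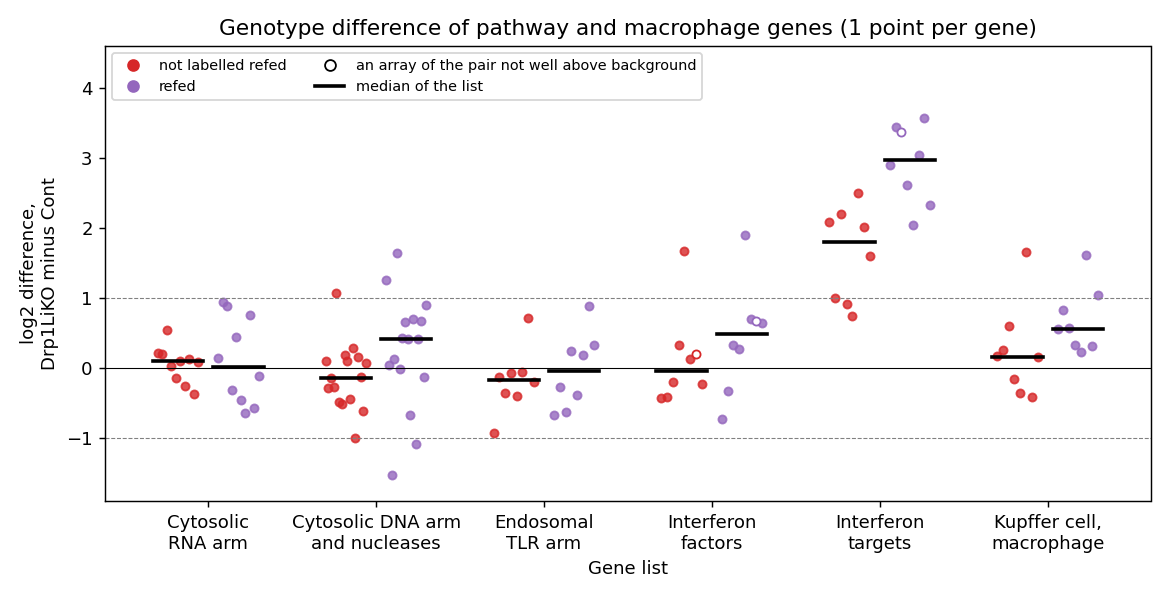
Log2 difference of *Drp1*LiKO minus Cont (y axis) for the genes of 5 pathway lists and of the Kupffer cell and macrophage list, with 1 point per gene and state and a black line at the median. Open points have an array that was not well above background, so their plotted value is not a measured fold. The interferon targets have medians of 1.80 and 2.97, and the cytosolic RNA arm has medians of 0.09 and 0.01.

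The markers of other liver cells were read beside these values. The summed signal of 8 Kupffer cell and macrophage markers, in multiples of each array's 75th percentile, was 95.1 in the fasted Cont, 109 in the fasted *Drp1*LiKO, 106 in the refed Cont and 185 in the refed *Drp1*LiKO liver. It was thus highest in the liver in which *Ddx58* and *Ifih1* were highest, with 8 of 8 markers higher in *Drp1*LiKO in the refed livers (median 0.56) and 5 of 8 in the fasted livers (median 0.17). *Marco*, a scavenger receptor of macrophages, differed most in both states (1.65 and 1.61). The neutrophil sum was highest in the same liver, at 8.80, but lowest in the fasted *Drp1*LiKO liver (2.46, beside 4.72 and 4.93 in the fasted and refed Cont livers), and its marker *Ngp* was not well above background in any of the livers. This sum follows *S100a8* and *S100a9* (0.94 and 1.04 higher in *Drp1*LiKO in the refed livers), while *Retnlg* differed by -0.74 and *Ly6g* by 0.02 there. The part of these cells in the *Ddx58* and *Ifih1* values was not tested.

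The summed dendritic cell signal was 61.7, 52.1, 55.4 and 48.9 in the fasted Cont, fasted *Drp1*LiKO, refed Cont and refed *Drp1*LiKO livers, but its markers did not share a direction. The sum follows *Siglech*, the brightest marker and a gene of plasmacytoid dendritic cells, almost alone. Its log2 level was 5.94 in the fasted Cont liver, beside -2.76 for *Itgax*, which encodes CD11c. *Siglech* differed by -0.25 in the fasted and -0.19 in the refed livers, whereas *Itgax* was higher in *Drp1*LiKO (1.16 and 1.19). Of the 4 markers with a signal, 3 were higher in each state (medians 0.23 and 0.62), *Flt3* and *Clec9a* among them with a Cont array not well above background, and *Xcr1* was not well above background. *Cd79a* and *Cd79b*, which encode parts of the B cell receptor, differed by 0.15 and 0.46 in the fasted and by -0.20 and 0.46 in the refed livers.

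The endothelial sum was 53.9, 45.0, 57.0 and 38.5 in the same order and the hepatocyte sum 1727, 1251, 2031 and 1450, each lower in *Drp1*LiKO in both states. In each of these lists 2 markers went the other way in both states, *Lyve1* (0.93 and 0.24) and *Pecam1* (0.84 and 0.07) among 5 endothelial markers, and *Tat* (1.04 and 0.98) and *Cps1* (0.60 and 1.24) among 6 hepatocyte markers. The cholangiocyte sum was 2.21-fold higher in *Drp1*LiKO in the fasted and 1.83-fold higher in the refed livers, with *Epcam* not well above background. The brightest marker of this sum, *Spp1*, differed by 1.40 in the fasted and 0.77 in the refed livers, and *Krt19* by 0.22 and 0.68. *Sox9* was higher by 1.24 in the fasted and by at least 1.67 in the refed livers. The refed Cont array was too dim for that call at *Sox9*, as were both Cont arrays at *Krt7*. The folds of the sum thus include signals without that call. The T cell sum lay between 15.8 and 21.5 with *Cd8a* not well above background, but its markers did not share a direction. *Cd4*, the brightest of them, differed by -0.27 in the fasted and -0.47 in the refed livers, and *Cd3e* by -0.67 and -0.64. *Cd3d* was higher in *Drp1*LiKO (0.98 and 1.07). *Cd3g* was higher by at least 1.17 and 0.80, with neither Cont array well above background. The stellate cell sum lay between 8.46 and 12.2. The part of these cells in the *Tlr9* and *Tlr7* values was not tested.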

How the data were processed

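Liver RNA was amplified, labelled with Cy3 and hybridized to Agilent mouse 4x44K v2 arrays. The intensity values deposited by the authors are processed signals, which per the file headers were background-subtracted by Feature Extraction 10.7.1.1 and not normalized between arrays (the submitters' processing notes name 9.5.1.1). All 4 arrays lay on 1 slide and in 1 scan. For the array design and the RNA kit, the labels and the paper's methods name different products, and the design in the files is that of the labels. Their quantile-normalized intensity table, deposited by the authors, served as an alternative. Probe positions are mm9 positions from the files, with no transcript annotation of that build used here.

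Outlier spots were left out, repeated spots averaged, and log2 signals set relative to the 75th percentile of each array. Gene names were updated by RefSeq accession for 26733 of 39429 probes. Each gene was represented by the probe with the most arrays well above background, and ties went to the brightest. A difference of at least 2-fold was counted where the brighter signal was well above background. Where 1 side was not, a bound was taken against that probe's signal or, if higher, the dimmest signal of the array that was well above background. Measurement SEs come from the software's error model. Depth is not defined for arrays, and their number limits the precision.

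The test was limma 3.58.1 (R 4.3.3) with genotype and feeding as additive terms, Benjamini-Hochberg adjusted over 16744 genes with a signal well above background on 2 or more arrays. The code was also run on simulated data with large changes and no interaction of genotype with feeding. That run cannot show how the model performs on these arrays, where such an interaction enters the residual. It has 1 residual degree of freedom before moderation. Alternatives were median scaling, quantile normalization, normexp with an offset of 50, the authors' values, the median over probes, other filters, a 1.5-fold threshold, an intensity trend and a model without the other factor. The members and lists were chosen with earlier results of these data known. Named are all members, *Dnm1l*, and pathway list genes (not cell type markers) at least 2-fold different the same way in both states or both genotypes or, in a list with none, the gene with the largest summed genotype difference. *Mb21d1* and *Ifnb1* are named whatever their values, and other list genes are marked where they were named after their values were seen. Tables and figures were made with Python 3.11.15, pandas 2.3.3 and matplotlib 3.10.9. The sum of 1 list of cell type markers is not reported here.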

Additional observations from a re-analysis of the deposited data

Results flagged for a closer look

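*Ddx58*, *Ifih1* and *Mavs* had refeeding differences of opposite sign in the 2 genotypes, with 1 array per group. *Ddx58* was at -0.11 in Cont and 0.84 in *Drp1*LiKO, *Ifih1* at -0.31 and 0.27, and *Mavs* at -0.086 in Cont and 0.27 in *Drp1*LiKO. *Tlr7* had genotype differences of opposite sign in the 2 feeding states, 0.10 in the fasted and -0.16 in the refed livers. None of these differences between groups was tested, because no group has a replicate, and of these 8 values only the 0.84 of *Ddx58* lay beyond 2 measurement SEs of 0. The other, dimmer probes gave 0.45 (SE 0.25) for *Ddx58* and -0.16 (SE 0.36) for *Ifih1* in *Drp1*LiKO, each within 2 SEs of 0.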

How the results depend on the processing

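The 2 members at least 2-fold different between genotypes in the refed livers stayed between 2 and 3 in number under every alternative, with *Ddx58* between 1.18 and 1.59 and *Ifih1* between 1.17 and 1.41. In the fasted livers the count of 1 became 0 with normexp, 0 with only genes well above background on all 4 arrays, 3 with the median over probes (*Ifih1*, *Tlr3* and *Tlr7*), 2 with no filter on dim probes (*Aim2* and *Tlr3*) and 3 at 1.5-fold (*Tlr3*, *Tlr9* and *Tbk1*). The refeeding count in Cont went from 0 to 1 with the median over probes and to 1 at 1.5-fold (*Tlr7* in each). In *Drp1*LiKO it went from 1 to 0 with normexp, 0 with only genes well above background on all arrays, 2 without a filter (*Aim2* and *Tlr3*) and 3 at 1.5-fold (*Ddx58*, *Tlr3* and *Tbk1*). The limma count of members for genotype went from 0 to 1 (*Tlr9*) when only the 14447 genes measured on every array were fitted. The *Tlr7* refeeding difference in Cont, 0.61, turned to -1.33 with the median over probes, which takes in probes not well above background, and its refed genotype difference ranged from -0.16 to 2.54. The stricter filter, the change of threshold and the dim probes follow from how these alternatives are built, and for normexp the cause was not tested. *Irf3* did not keep its sign in the fasted genotype difference (-0.29 to 0.00) or in the refeeding difference in *Drp1*LiKO (-0.05 to 0.31). Over all genes, limma called 0 for genotype as reported, 474 with an intensity trend, 319 with median scaling, 498 with normexp, 1214 among genes well above background on all 4 arrays and 1 without feeding in the model, and for feeding 0 as reported and 15 among genes well above background on all arrays. Quantile normalization and the authors' values each moved the median of all genes in the fasted genotype difference by 0.11, and every other such shift was at most 0.091 in size. No paired analysis was possible because each group has 1 array and the labels carry no replicate numbers to pair, and leaving out an array leaves no residual degrees of freedom, so it was not run.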
